A study of Mus musculus with 468 samples.

Results

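The 10 imprinted growth genes Peg3, Plagl1, Igf2, H19, Dlk1, Meg3, Cdkn1c, Ndn, Grb10 and Gnas were followed across adipose transcriptomes with 1 library per mouse. They were chosen by name, as the rows of the count matrix whose gene symbol is on that list, and no measured value entered the choice. All 10 were found among the 23180 genes of the matrix, and all 10 were among the 18380 genes that passed the filter on low counts (10 counts or more in 50% of the libraries or more). The questions put to them were how strongly each gene varied between mice, whether the 10 varied together as a network, and which other transcripts moved with them.

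The mice were Diversity Outbred animals, an outbred stock bred from inbred founder strains, and all of them ate a high-fat, high-sugar diet with 45% of fat. The tissue was visceral fat, taken from the gonadal fat pad per the methods of the study. The labels form 1 group, with no control diet, and they give no age, sex, generation or batch, so the comparisons below are between genes across mice and not between treatments. All p-values rest on 1 library per mouse, so animal and assay variation enter them together. Libraries held 35.3 M to 137.8 M expected counts (median 82 M), and 0 libraries repeated the values of another. All 10 adipocyte markers on the list used to check the tissue were past the filter, with median levels from 140.8 CPM (counts scaled to a library total of 1000000) for Pparg, the master regulator of fat cell differentiation, to 9671 CPM for Fabp4, a fatty acid carrier. The libraries fell into 2 clusters by their content of Y chromosome transcripts (Ddx3y, Eif2s3y, Kdm5d and Uty): 48.5% of the libraries lacked them (Y-negative) and 51.5% held them (Y-positive). In 2 of the Y-negative libraries Xist, the RNA that coats the inactive X chromosome, was also under 100 CPM. These clusters were read from the counts and not from the labels. The study used female and male mice, with sex, generation and wave as covariates in its tests. Its numbers of female and male adipose samples equal the sizes of the Y-negative and Y-positive clusters. The clusters are therefore taken to follow sex, although the labels give no sex to match library by library. Correlations are given inside both clusters, the Y-negative value first, beside or in place of the value over all libraries.

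An imprinted gene is transcribed mainly from the copy inherited from 1 parent, a choice set by DNA methylation laid down in the egg or the sperm. Many imprinted genes control growth before and after birth, with paternally expressed genes such as Igf2 and Dlk1 and maternally expressed genes such as H19, Cdkn1c and Grb10 often acting in opposite directions. In fat, several of them act on precursor cells, insulin signalling and heat production. The deposited values add both alleles of a gene, so the parental origin of a transcript was not analysed here.

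On GRCm38, H19 (chr7:142575529-142578143), Igf2 (chr7:142650766-142666816) and Cdkn1c (chr7:143458339-143461050) lie on the minus strand of 1 region of chromosome 7. The same chromosome holds Peg3 (chr7:6703892-6730431, minus) and Ndn (chr7:62346569-62350262, plus) elsewhere. Dlk1 (chr12:109452823-109463336) and Meg3 (chr12:109541001-109571726) are neighbours on the plus strand of chromosome 12. Plagl1 (chr10:13060504-13131694, plus), Grb10 (chr11:11930508-12038683, minus) and Gnas (chr2:174284320-174346744, plus) each lie on a chromosome of their own. Peg3, Dlk1 and Grb10 overlap no other annotated gene, and the other 7 overlap at least 1, so part of their reads may be shared with it.

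Promoter windows of RefSeq (GRCm38.p6, 250 bases before to 50 bases after an annotated start) were found for 8 of the 10 genes, as 16 windows. A window is printed for Peg3, Plagl1 and Grb10, the genes whose 3 pairs were correlated in both clusters of libraries, and for Meg3, whose relation to Gnas was the only negative one found in both. Peg3 lies on chromosome 7 (chr7:6730370-6730669, minus strand), Plagl1 on chromosome 10 (chr10:13090582-13090881, plus strand), Grb10 on chromosome 11 (chr11:12037371-12037670, minus strand) and Meg3 on chromosome 12 (chr12:109540746-109541045, plus strand), and each window runs 5′ to 3′ along the gene.
Peg3: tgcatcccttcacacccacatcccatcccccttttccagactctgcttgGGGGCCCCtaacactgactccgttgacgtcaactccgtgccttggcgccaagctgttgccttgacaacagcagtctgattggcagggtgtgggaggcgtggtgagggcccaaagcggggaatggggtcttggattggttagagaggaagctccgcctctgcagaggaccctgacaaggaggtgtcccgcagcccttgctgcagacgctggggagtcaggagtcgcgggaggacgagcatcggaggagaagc
Plagl1: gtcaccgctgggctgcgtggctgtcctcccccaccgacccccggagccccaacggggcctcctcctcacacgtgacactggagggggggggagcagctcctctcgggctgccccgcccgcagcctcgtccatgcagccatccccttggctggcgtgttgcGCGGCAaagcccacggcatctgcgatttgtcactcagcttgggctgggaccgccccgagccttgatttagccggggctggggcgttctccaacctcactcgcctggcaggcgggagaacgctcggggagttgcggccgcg
Grb10: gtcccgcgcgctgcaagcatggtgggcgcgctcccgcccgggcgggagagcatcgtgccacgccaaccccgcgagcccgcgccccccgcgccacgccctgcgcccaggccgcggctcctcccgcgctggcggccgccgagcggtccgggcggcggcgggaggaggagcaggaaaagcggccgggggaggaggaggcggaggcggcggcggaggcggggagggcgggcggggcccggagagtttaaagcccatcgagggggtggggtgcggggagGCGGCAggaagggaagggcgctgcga
Meg3: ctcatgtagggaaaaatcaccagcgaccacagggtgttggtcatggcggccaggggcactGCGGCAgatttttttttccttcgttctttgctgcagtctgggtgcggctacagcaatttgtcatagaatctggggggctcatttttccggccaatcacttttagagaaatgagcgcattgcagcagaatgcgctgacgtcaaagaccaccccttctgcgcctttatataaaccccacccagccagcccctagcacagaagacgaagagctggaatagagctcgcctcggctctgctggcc
Capitals mark matches to either of 2 words searched on both strands. The first, GGGGCCCC, is its own reverse complement and is taken as a word of the binding site of PLAGL1, the zinc finger protein that Plagl1 encodes. It occurred in 1.08% of the 32851 windows of all genes, and in 1.25% of genes. Among the 8 genes with a window it occurred only in Peg3, upstream of the start site, and H19 and Cdkn1c had no window to search. The second, TGCCGC, is taken as the word that ZFP57, a zinc finger protein that maintains imprints, binds when it is methylated, and the printed windows hold it as its reverse complement. It occurred in 11.6% of all windows and in 4 of the 16 windows of these genes, 1 each of Plagl1, Igf2, Grb10 and Meg3. By gene, it occurred in 13.1% of all genes and in 4 of the 8. The words do not overlap each other in these windows, and a match describes the letters and not binding. The printed windows held 61.3% (Peg3), 70.7% (Plagl1), 80% (Grb10) and 53.7% (Meg3) G and C bases, and the median of all windows was 52.7%. Grb10 and Meg3 each have another window, not printed, with 52.3% and 50.3% G and C bases and no match to either word.

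Levels are given in CPM, and genes are compared with each other only in CPM per kilobase of exon. Gnas, which encodes the stimulatory G protein subunit that couples hormone receptors to cyclic AMP, was the most abundant of the 10, at 730.1 ± 193.6 CPM (mean ± SD over all libraries, as for the other genes). Its libraries ran from 462.5 through a median of 671.8 to 1825 CPM. Per kilobase it stood at 65.3 ± 17.3 CPM, percentile 97 of all genes tested, and it was above Peg3, the next gene in the order, in 99.8% of libraries. The count of Gnas pools transcripts from several promoters with different imprints, since the files hold 1 value per gene.

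Peg3, a paternally expressed zinc finger gene, measured 227.2 ± 136.1 CPM, with 16.2 CPM in the lowest library, a median of 204.6 and 1058 in the highest. Plagl1, a paternally expressed transcription factor that acts on cell growth, measured 65.8 ± 39.9 CPM (lowest 6.41, median 55.4, highest 349.8). Grb10, an adaptor protein that binds and restrains the insulin and IGF1 receptors, measured 101.3 ± 29.6 CPM (lowest 44.8, median 97.6, highest 226.4). The range of Peg3 and Plagl1 was wide: the 95th percentile library was 8.36 times the 5th for Peg3 and 7.35 times for Plagl1, against 2.42 times for Grb10. The order of Peg3 over Grb10 per kilobase held in 71.2% of libraries, and that of Grb10 over Plagl1 in 76.5%.

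Cdkn1c, which encodes the cell cycle inhibitor p57, measured 16.6 ± 9.0 CPM (lowest 3.44, median 14.6, highest 70.7). Ndn, encoding necdin, a protein that holds back division and fat cell differentiation, measured 21.7 ± 5.07 CPM (lowest 7.43, median 21.5, highest 46.7). Per kilobase Plagl1 (8.42 ± 5.11) and Cdkn1c (8.15 ± 4.41) did not differ beyond their spread, with Plagl1 the higher in 51.7% of libraries. Ndn (5.87 ± 1.37 CPM per kilobase) was above Meg3 (3.58 ± 1.35) in 91.7% of libraries, and Cdkn1c above Ndn in 65%.

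Igf2, the growth factor that signals through the IGF1 and insulin receptors, measured 19.2 ± 7.13 CPM (lowest 4.04, median 18.8, highest 50.9). Meg3, a long non-coding RNA of the maternal copy of its locus, measured 64.8 ± 24.3 CPM (lowest 19.5, median 60.4, highest 245.3). Per kilobase these genes stood next to each other, with Meg3 the higher in 52.1% of libraries. H19, a long non-coding RNA, measured 2.19 ± 3.33 CPM (lowest 0.102, median 1.22, highest 48.9), and Dlk1, a transmembrane inhibitor of adipocyte differentiation, 1.17 ± 1.07 CPM. The highest library of Dlk1 held 7.29 CPM, the median was 0.899 and 3 libraries held 0 counts of it. Per kilobase Igf2 was above H19 in 95.5% of libraries and H19 above Dlk1 in 88.2%. Dlk1 rested on a median of 70 counts per library and H19 on little more, where the other genes rested on 1195 or more, so the spread of these genes carries the most counting error.

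**Figure D1:**
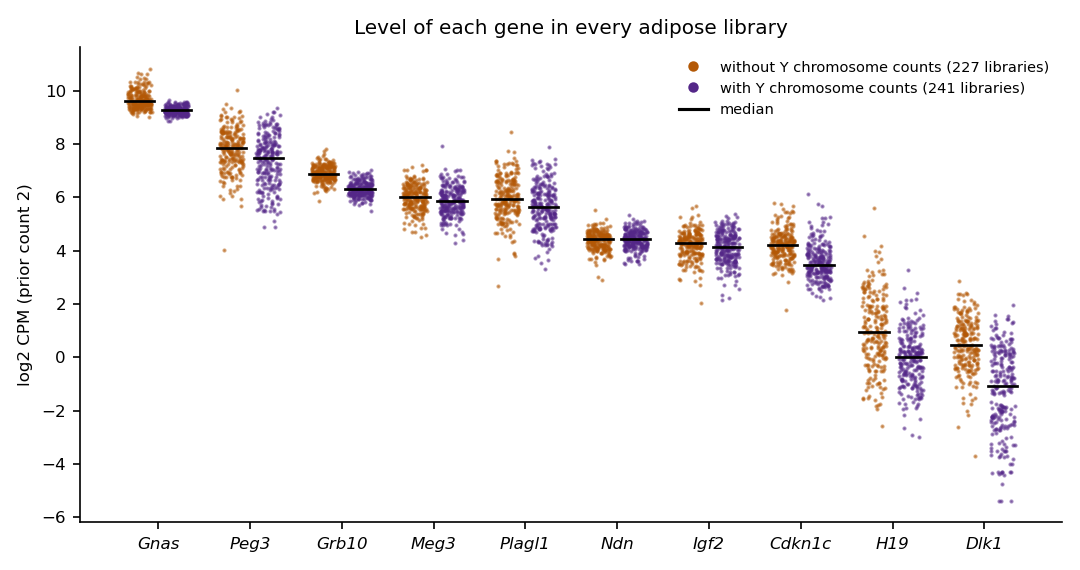
The level of each gene in every library, in log2 CPM, split into Y-negative and Y-positive libraries (1 point per library, black bars at the medians). Gnas sits at the top with a median of 671.8 CPM and Dlk1 at the bottom with 0.899, and Peg3 and Plagl1 spread widely around their medians.

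The biological coefficient of variation, the spread of a gene that counting error does not account for, put the genes in a different order. It was 0.951 for Dlk1, 0.932 for H19, 0.592 for Peg3, 0.562 for Plagl1 and 0.485 for Cdkn1c, against a median of 0.312 over all genes tested. Igf2 (0.374) and Meg3 (0.358) lay above that median as well, whereas Grb10 (0.283), Gnas (0.237) and Ndn (0.234) lay below it.

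Medians also differed between the clusters of libraries, and these values are a description with no test. Grb10 had a median of 117.5 CPM in Y-negative and 79.2 in Y-positive libraries, Dlk1 of 1.36 and 0.451, H19 of 1.9 and 0.985, Cdkn1c of 18.4 and 11.1, and Gnas of 779.4 and 621.4. The medians of Peg3 were 232.2 and 177.4 CPM and those of Plagl1 60.9 and 50.4. Ndn had the same median, 21.5 CPM, in both. The highest Gnas level was 1825 CPM in a Y-negative and 805.1 CPM in a Y-positive library.

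The 10 genes form 45 pairs, and a pair was called positive or negative when Pearson's r of the log2 CPM values was at least 0.3 in size and limma's adjusted p (Benjamini-Hochberg over all genes tested) was under 0.05. Over all libraries 13 pairs were called positive and 0 negative, where 8.65% of all pairs of genes reached r of 0.3 and 8.29% reached -0.3. The median r of the 45 pairs was 0.148, and the values ran from -0.253 to 0.49. The smallest p that 100000 permutations can give, 1e-05 (two-sided), was reached by all 13 pairs for both r and Spearman's rho. Inside the clusters, 4 of these 13 pairs were called in both, 4 in 1 and 5 in neither. The counts inside the clusters were 5 positive and 3 negative pairs in Y-negative libraries, where 7.91% and 7.66% of all gene pairs reached those limits. In Y-positive libraries they were 12 positive and 7 negative pairs, where 7.46% and 6.69% did.

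**Figure D2:**
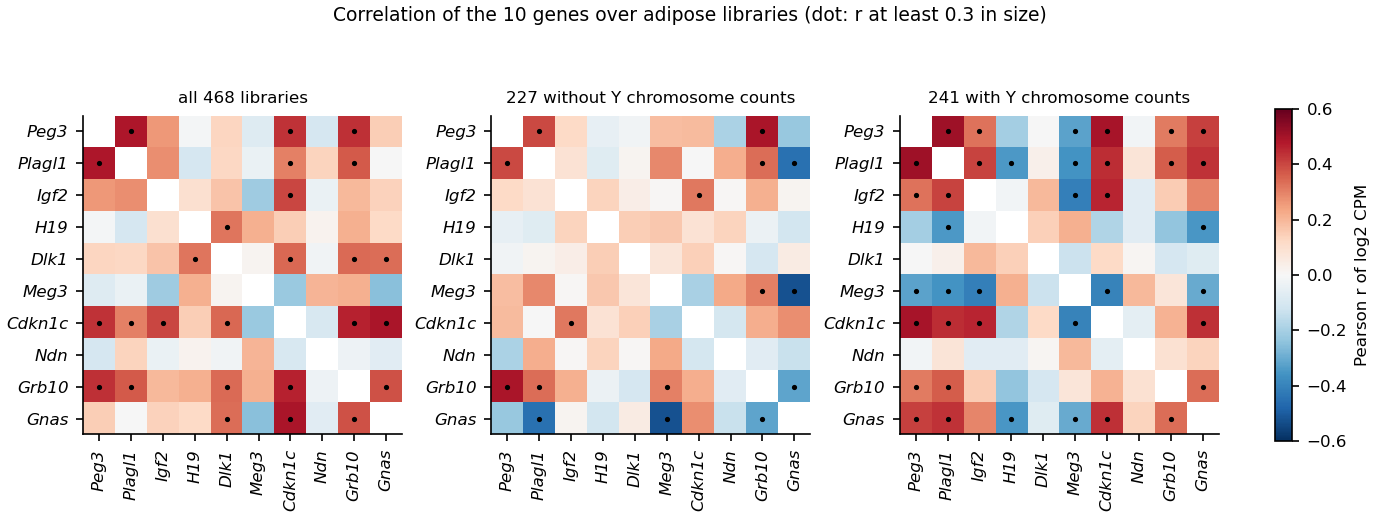
Pearson's r of log2 CPM for the 45 pairs, over all libraries and inside each cluster, with colour for the sign and size of r. Peg3, Plagl1 and Grb10 stay positive in both clusters, and the cells of Gnas with Plagl1 and Grb10 change colour between the clusters.

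Peg3, Plagl1 and Grb10 were correlated with each other in both clusters. The 4 pairs called positive in both, where 3.05% of all gene pairs were, included all 3 pairs of this triad, and the fourth was Igf2 with Cdkn1c. Peg3 and Plagl1 had r = 0.396 in Y-negative and 0.51 in Y-positive libraries (0.484 over all, rho 0.447, limma adjusted p = 1.76e-26). The r of Peg3 with Grb10 was 0.49 and 0.313 (0.436 over all), and that of Plagl1 with Grb10 0.336 and 0.361 (0.368 over all). In 5 blocks of consecutive library numbers, with 93 or 94 libraries each, r of Peg3 with Plagl1 stayed between 0.417 and 0.525. In Y-negative libraries the r of Plagl1 with Grb10 was 0.279 without the 2 libraries whose Plagl1 level lay farthest from the median, just under the limit. Spearman's rho in Y-negative libraries was 0.316 for Peg3 with Plagl1, 0.417 for Peg3 with Grb10 and 0.24 for Plagl1 with Grb10. In Y-positive libraries these rho values were 0.512, 0.35 and 0.381.

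Igf2 and Cdkn1c, a growth factor and a cell cycle inhibitor from opposite ends of an imprinted region on chromosome 7, had r = 0.316 in Y-negative and 0.457 in Y-positive libraries (0.399 over all, limma adjusted p = 6.83e-18). Without the 2 farthest Y-negative libraries the value there was 0.299. Spearman's rho of this pair was 0.273 in Y-negative and 0.498 in Y-positive libraries. Cdkn1c had the most calls over all libraries, 6 of 9, with Peg3 (0.192 in Y-negative, 0.496 in Y-positive), Plagl1 (-0.00338 and 0.443), Igf2, Dlk1, Grb10 and Gnas. Its r with Gnas was 0.278 and 0.438 (0.49 over all, the highest of the 45). With Grb10 it was 0.461 over all libraries but 0.218 and 0.207 inside the clusters.

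Neither of the next-door pairs reached the limit. Igf2 and H19, neighbours that share enhancers, had r = 0.132 in Y-negative and -0.0157 in Y-positive libraries. Dlk1 and Meg3, neighbours on chromosome 12 controlled by the same imprinted region, had 0.071 and -0.127. Ndn entered 0 calls with the other members over all libraries or in either cluster. Dlk1 was called with H19 (0.32), Cdkn1c (0.343), Grb10 (0.342) and Gnas (0.334) over all libraries, and with 0 genes of the 10 inside either cluster. For Dlk1 and Grb10 the values inside the clusters were -0.1 and -0.101.

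Meg3 and Gnas made the 1 pair called negative in both clusters, where 2.67% of all gene pairs were. Their r was -0.524 in Y-negative and -0.304 in Y-positive libraries, and -0.253 over all. Without the 2 farthest Y-positive libraries it was -0.288 there. Meg3 was negative with 5 of the other 9 genes in Y-positive libraries (Igf2 -0.408, Cdkn1c -0.401, Plagl1 -0.358, Peg3 -0.322 and Gnas). In Y-negative libraries its r with Plagl1 was 0.287 and with Peg3 0.185, and with Grb10 it reached 0.301, a call lost at 0.286 without the 2 farthest libraries.

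The relation of Gnas to Plagl1 and Grb10 ran in opposite directions in the clusters. For Plagl1 and Gnas r was -0.448 in Y-negative and 0.433 in Y-positive libraries, and -0.00256 over all. For Grb10 and Gnas it was -0.315 and 0.336, and 0.383 over all, and the Y-negative value was -0.287 without the 2 farthest libraries. These 2 of 45 pairs were called in opposite directions, where 0.198% of all gene pairs were, and 15 of 45 had r of opposite sign, where 34.8% did. A term for the difference in slope between the clusters, added after the data were seen, passed limma's adjusted p of 0.05 in 14 of the 45 pairs, with adjusted p = 1.96e-19 for Plagl1 with Gnas and 2.54e-09 for Grb10 with Gnas. Such differences were common among all genes: the term was called for 43.3% of genes against Peg3, 57.1% against Plagl1, 32.6% against Igf2, 7.66% against H19 and 6.79% against Dlk1. It was called for 47.5% of genes against Meg3, 22.3% against Cdkn1c, 9.47% against Ndn, 40.6% against Grb10 and 54.6% against Gnas.

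**Figure D3:**
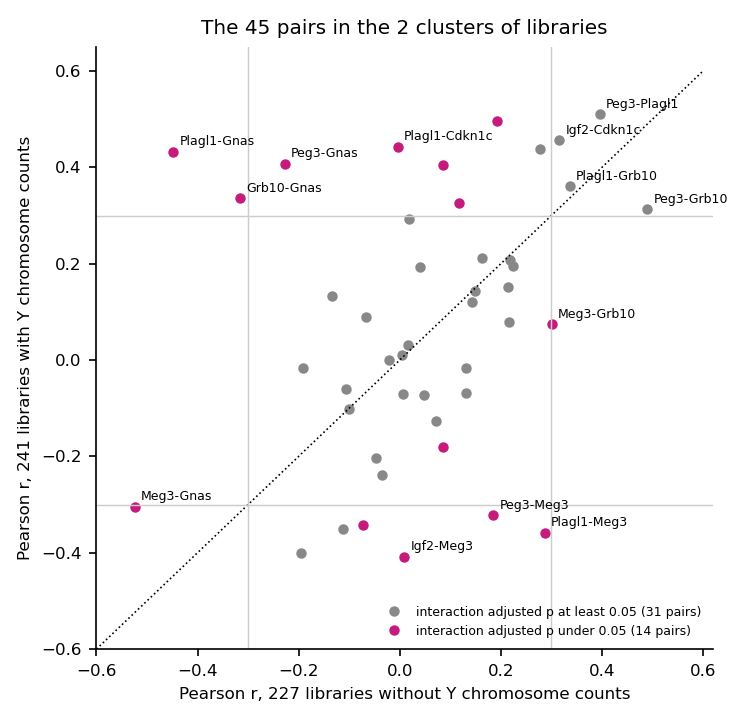
Pearson's r of each of the 45 pairs in Y-negative libraries (horizontal axis) against that in Y-positive libraries (vertical axis), with lines at 0.3 and -0.3. The triad of Peg3, Plagl1 and Grb10 and the pair Igf2 and Cdkn1c lie in the upper right, Meg3 with Gnas in the lower left, and Plagl1 with Gnas in the upper left (-0.448 and 0.433).

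Scores of cell types and pathways, each the mean of standardised log2 CPM values (z) over a marker list, showed which parts of the tissue each gene moved with. In bulk RNA fewer cells of a type and less RNA per cell cannot be told apart. Of the 10 genes, 5 were called positive and 1 negative with the adipocyte score, where 34.5% of all genes outside the list were called either way. Plagl1 had r = 0.128 with that score in Y-negative and 0.624 in Y-positive libraries, Peg3 0.0912 and 0.539, Grb10 0.0812 and 0.413, Cdkn1c 0.269 and 0.439, and Gnas 0.283 and 0.753. With the macrophage score 1 gene was called positive and 4 negative, where 44.2% of genes were called. Peg3 and Plagl1 changed sign there, from 0.25 and 0.321 in Y-negative to -0.392 and -0.449 in Y-positive libraries, and the slope differed for 56.5% of all genes. With the adipocyte, progenitor, macrophage and endothelial scores as covariates, 4 of the 45 pairs were called positive and 1 negative. The share of all gene pairs was not computed with these covariates, so the count has no background. Peg3 kept r of at least 0.3 with Plagl1 (0.318), Grb10 (0.326) and Cdkn1c (0.306) in that fit, Meg3 with Grb10 (0.318) was the fourth, and Plagl1 with Gnas (-0.308) was negative.

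Gnas followed the thermogenic genes in Y-negative libraries. Its r with the score of this list, which holds Ucp1, the proton channel of brown and beige fat, was 0.839 in Y-negative and 0.038 in Y-positive libraries (0.829 over all, rho 0.697). The limma term for the difference in slope had an adjusted p of 1.19e-56. That term compares slopes of log2 CPM and not r, so it also depends on how widely Gnas spread in each cluster. The slope on this score differed between the clusters for 54.3% of all genes, and 45.2% of genes outside the list were called with it over all libraries, among them 4 of the 10, all positive. Ucp1 itself had a median of 448.2 CPM in Y-negative and 3.02 CPM in Y-positive libraries. The 5 genes with the highest r with Gnas were Cox6a1 (0.92 in Y-negative, 0.67 in Y-positive), Ogdh (0.919 and 0.625), Atp5j2 (0.906 and 0.643), Cox17 (0.902 and 0.653) and Bsg (0.909 and 0.568). The first 4 of these act in mitochondrial energy production, and Bsg is a chaperone of lactate transporters. The lowest were Wsb1 (-0.746 and -0.622), Cpt1a (-0.701 and -0.413), the enzyme that admits long fatty acids to mitochondria in many tissues, and Slc29a3 (-0.67 and -0.601). In all, 21.7% of genes were called positive with Gnas, the highest share of the 10. Another 24.7% were called negative with it. Neighbours of Gnas within 500 kb included Atp5e (0.865 and 0.624), Prelid3b (0.879 and 0.272), Npepl1 (0.775 and 0.591) and Nelfcd (0.53 and 0.358). Of the 10 neighbours, 5 had r of at least 0.3 in size over all libraries, all of them positive. The fifth, Gm20721 (0.458 and 0.139), overlaps Gnas on the opposite strand, and because no use of strand is given in the sources used here, reads of the overlap cannot be assigned.

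**Figure D4:**
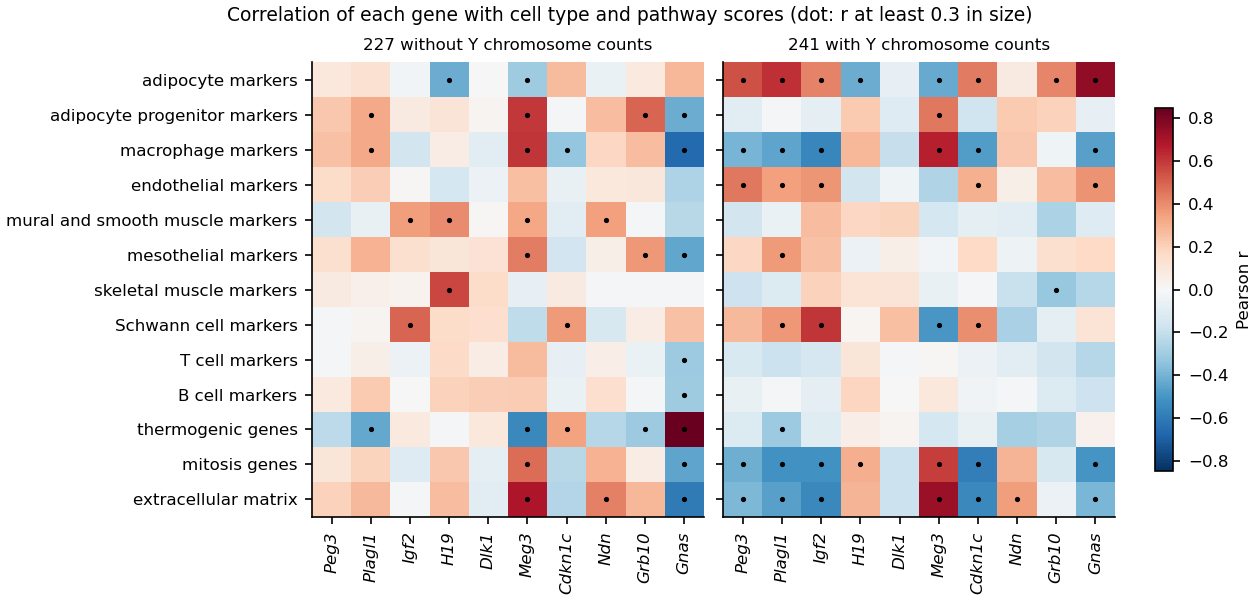
Pearson's r of each gene with each score of a cell type or pathway, inside the Y-negative and the Y-positive libraries, with colour for the sign and size of r. Gnas with the thermogenic genes (0.839 against 0.038) and Peg3 and Plagl1 with the macrophage score change most visibly between the clusters, and Meg3 with the extracellular matrix stays positive.

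Meg3 moved with the extracellular matrix. All 19 matrix genes tested were called positive with Meg3, with a median r of 0.567 against -0.0155 over all genes, and 9.56% of all genes were called positive with it. Its r with the matrix score was 0.686 in Y-negative and 0.735 in Y-positive libraries, where 41.4% of genes outside the list were called with the score over all libraries and the slope differed for 58.2%. The 5 highest partners were Rian (0.915 and 0.943, adjusted p = 1.62e-203), Mirg (0.8 and 0.856), Pcolce (0.673 and 0.721), Loxl1 (0.634 and 0.737) and Col1a1 (0.62 and 0.739). Rian and Mirg are non-coding RNAs of the same maternal transcription unit, downstream of Meg3 on chromosome 12, while Pcolce matures procollagen, Loxl1 cross-links elastin and Col1a1 is a chain of type I collagen. Rtl1, a paternally expressed gene between Meg3 and Rian, had r = 0.552 and 0.728, but an antisense RNA of the maternal unit runs through it, so its reads are uncertain. The macrophage score rose with Meg3 too (0.609 and 0.663), as did the progenitor score (0.599 and 0.445). Dcaf11 (-0.558 and -0.517), Gclc (-0.483 and -0.566) and Prodh (-0.507 and -0.567) were lowest.

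Ndn shared the matrix with Meg3 at lower values. It was called positive with 11 of 19 matrix genes (median r 0.355 against -0.00719 over all genes), and 4.85% of all genes were called positive with it. Col15a1 (0.563 in Y-negative, 0.447 in Y-positive), Rsu1 (0.561 and 0.483), S100a11 (0.544 and 0.558), Col6a2 (0.546 and 0.454) and Fmr1 (0.543 and 0.464) led its partners, and 2 of these, Col15a1 and Col6a2, encode collagen chains. The lowest were Tapt1 (-0.602 and -0.37), Srrm2 (-0.534 and -0.449) and Sf1 (-0.54 and -0.421), the latter pair acting in splicing. With Gnas, 16 of 19 matrix genes were called negative (median r -0.43), where 24.7% of all genes were. With Cdkn1c, 14 were (median r -0.397), where 17% of all genes were.

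Peg3 had its own domain as its closest partner. Zim1, a maternally expressed zinc finger gene whose start lies 32.6 kb away on chromosome 7, had r = 0.827 in Y-negative and 0.809 in Y-positive libraries (adjusted p = 2.17e-115). Usp29, the paternally expressed gene that starts head to head with Peg3, had 0.652 and 0.588. In total 5.13% of genes were called positive with Peg3. Bnip3 (0.529 and 0.68), a mitophagy receptor, Ncor1 (0.553 and 0.669), a nuclear receptor corepressor, and Nedd4 (0.52 and 0.587), a ubiquitin ligase that acts with Grb10, were also among its highest. The lowest were Ykt6 (-0.571 and -0.567), a protein of vesicle fusion, Adap1 (-0.569 and -0.494) and Mid1ip1 (-0.656 and -0.404), an activator of fatty acid synthesis.

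With Plagl1, 4.29% of genes were called positive. Apcdd1 (0.493 in Y-negative, 0.67 in Y-positive), an inhibitor of Wnt signalling, Pdzd2 (0.378 and 0.687), Sgce (0.535 and 0.595), Gnai1 (0.493 and 0.683), an inhibitory G protein subunit, and Nedd4 (0.41 and 0.639) were highest. Sgce is itself a paternally expressed imprinted gene on another chromosome. Tfe3 (-0.544 and -0.602), a regulator of lysosomal genes, 2310022A10Rik (-0.365 and -0.632) and Mfsd11 (-0.464 and -0.599) were lowest. Nedd4 was the only gene in the top 5 of more than 1 of the 10 genes besides Xist.

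Igf2 moved with genes of nerve. Its r with the Schwann cell score was 0.494 in Y-negative and 0.608 in Y-positive libraries (0.562 over all, limma adjusted p = 2.95e-39), and 35.5% of genes outside the list were called with that score. Of the 10 genes, 4 were called positive with it and 1 negative. The 5 closest partners of Igf2 were Cytl1 (0.542 and 0.556), Kcna6 (0.489 and 0.535), Gfra3 (0.467 and 0.551), Susd5 (0.622 and 0.516) and Kcna1 (0.483 and 0.541), of which Kcna1 and Kcna6 encode voltage-gated potassium channels and Gfra3 the artemin receptor. These partners were scarce, at 1.41 to 4.88 CPM on average. The Schwann marker Sox10, a transcription factor of the neural crest, had a median of 0.96 CPM. The lowest were Pi4k2a (-0.438 and -0.64), Atp6v1a (-0.437 and -0.609) and Atp6v1b2 (-0.356 and -0.635), the latter pair subunits of the proton pump of lysosomes, and Ctsd, a lysosomal protease encoded near Igf2, had -0.292 and -0.567. In total 5.44% of genes were called positive with Igf2.

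H19 moved with skeletal muscle genes, mainly in Y-negative libraries. Its r with the muscle score was 0.565 in Y-negative and 0.114 in Y-positive libraries (0.465 over all, rho 0.321), and 0.43 over all without the 2 libraries farthest from the median. Only 0.642% of genes outside the list were called with this score, H19 the only 1 of the 10, and the slope differed between the clusters for 12.5% of all genes. The library with the highest H19 level, 48.9 CPM, also had a muscle score of 4.755 (mean z). The muscle markers ran from low medians to high single values: Ckm, muscle creatine kinase, had a median of 0.17 and a highest value of 667.8 CPM, and Acta1, skeletal muscle actin, a median of 27.1 and a highest value of 1144 CPM. Among the highest partners of H19 were Frzb (0.42 in Y-negative, 0.391 in Y-positive), a secreted Wnt antagonist, Obsl1 (0.451 and 0.407), a scaffold protein of the cytoskeleton, Zmynd15 (0.47 and 0.259) and Tnnt3 (0.541 and 0.205), a troponin of fast muscle fibres. The starts of Tnnt3 and Tnni2, another fast troponin (0.554 and 0.177), lie within 500 kb of that of H19. A share of 2.49% of genes was called positive with H19, and Ypel5 (-0.397 and -0.264), Setd3 (-0.337 and -0.419) and Tns1 (-0.334 and -0.36) were lowest.

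Cdkn1c had 16.7% of genes called positive with it. Mapk1ip1 (0.466 in Y-negative, 0.6 in Y-positive), Eif4a2 (0.465 and 0.554), a translation helicase, Mapk8ip3 (0.484 and 0.566), Fam13a (0.472 and 0.578) and Mettl7a1 (0.47 and 0.582) were highest. Slc41a2 (-0.455 and -0.611), B4galt6 (-0.471 and -0.581) and Atp6v0a1 (-0.471 and -0.535), a further proton pump subunit, were lowest. The r of Cdkn1c with the mitosis score was -0.237 and -0.586, and with the macrophage score -0.326 and -0.478. With Cdkn1c 16.7% of all genes were called positive and 17% negative. Of its 18 neighbours within 500 kb, 10 had r of at least 0.3 in size over all libraries. Those positive were Nadsyn1 (0.361 and 0.368), Kcnq1ot1 (0.175 and 0.366) and Nap1l4 (0.163 and 0.214). Those negative were Kcnq1 (-0.281 and -0.211), Tnfrsf23 (-0.252 and -0.547), Tssc4 (-0.181 and -0.444), Tnfrsf26 (-0.295 and -0.263), Dhcr7 (-0.268 and -0.6), Tnfrsf22 (-0.262 and -0.421) and Mrgpre (-0.122 and -0.186). Nadsyn1 was the only 1 of the 10 past the limit in both clusters. Kcnq1ot1 is the paternal non-coding RNA that silences Cdkn1c in cis on the paternal copy.

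Grb10 and Dlk1 were followed over all libraries mainly by genes that separate the clusters. For Grb10, 12.4% of genes were called positive, led by Xist (0.706 over all, -0.0392 in Y-negative and -0.0465 in Y-positive libraries). Lamb1, a laminin chain of basement membranes, held in both clusters (0.551 and 0.522), and Sstr4 (0.413 and 0.211), 1010001N08Rik (0.438 and 0.291) and AW551984 (0.376 and 0.157) were lower there. The Y gene Eif2s3y was among the lowest over all at -0.729, with 0.0106 in Y-positive libraries. Y-negative libraries hold no counts of it by definition, so no r is given there. For Dlk1, 7.5% of genes were called positive. Hoxa9 (0.00426 and 0.282), Egfl6 (0.157 and 0.42), Xist (0.00617 and 0.0634), Hoxc10 (-0.0649 and 0.0965) and Nrn1 (0.0297 and 0.2) were its highest over all, at 0.53 to 0.565, and of these Egfl6, a secreted adipose growth factor, reached 0.3 inside a cluster.

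**Figure D5:**
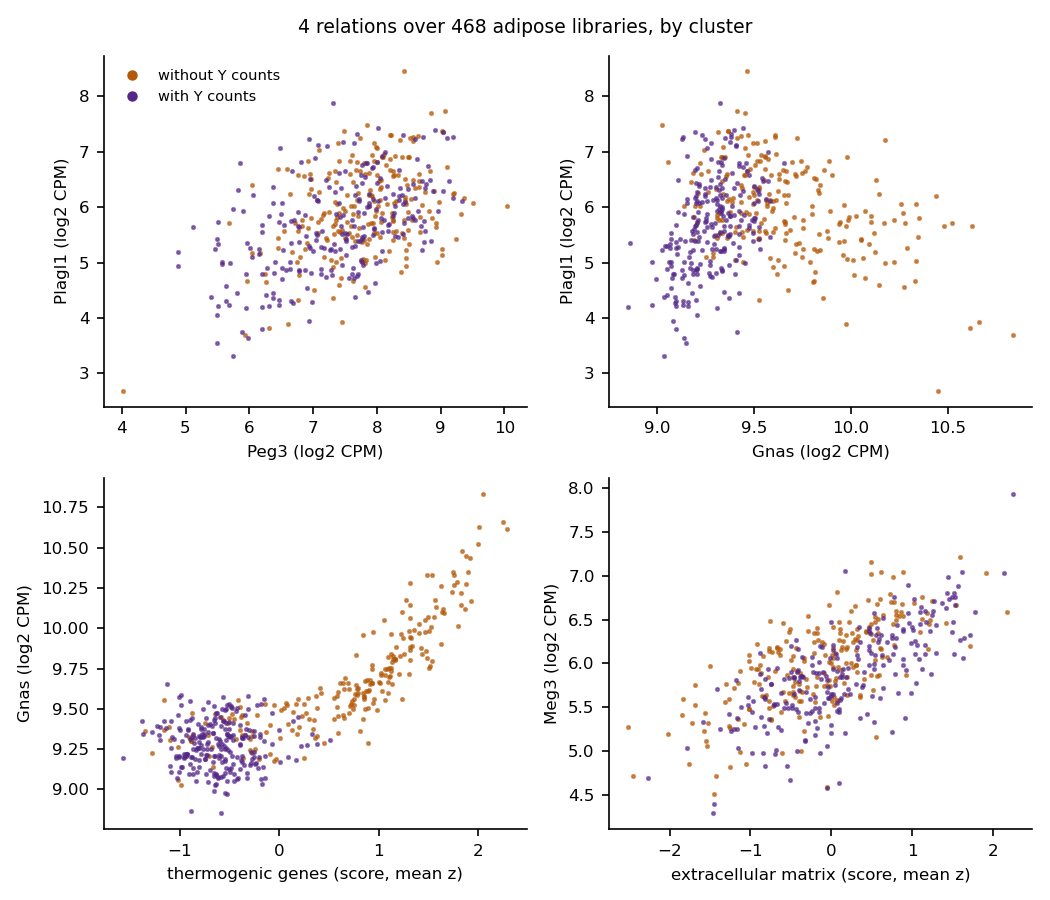
Plagl1 against Peg3, Plagl1 against Gnas, Gnas against the thermogenic score and Meg3 against the matrix score, in log2 CPM or mean z units, with 1 point per library and colour for the Y-negative and Y-positive clusters. Plagl1 rises with Peg3 and Meg3 with the matrix score in both clusters, Plagl1 falls with Gnas in Y-negative and rises in Y-positive libraries (r = -0.448 and 0.433), and Gnas follows the thermogenic score in Y-negative libraries.

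Other neighbours within 500 kb had lower values, and several did not hold inside the clusters. With Peg3, 3 of 11 neighbours reached r of 0.3 in size over all libraries, the third being Zfp667 (0.171 and 0.304). With Plagl1 2 of 8 did, Phactr2 (0.489 and 0.165) and Pex3, whose sign turned between the clusters (-0.14 and 0.578). Ifitm10 had 0.367 and 0.351 with Igf2, 1 of 2 among 14 neighbours that reached the limit. With H19, 4 of 14 did, the others being Lsp1 (0.308 and 0.32) and Prr33 (0.369 and 0.305). Begain had 0.417 with Dlk1 over all libraries but 0.223 and -0.12 in the clusters. With Grb10 3 of 6 did over all libraries, and inside the clusters Cobl had 0.353 and 0.042, Ikzf1 -0.012 and -0.185 and Fignl1 -0.0419 and -0.168. With Ndn 0 of 2 neighbours reached it. Among all genes, positive and negative calls took 5.13% and 5.77% with Peg3, 4.29% and 4.41% with Plagl1, and 5.44% and 8.04% with Igf2. They took 2.49% and 2.29% with H19, 12.4% and 15.4% with Grb10, and 4.85% and 3.56% with Ndn.

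A gene shared by all 10 members was not found. Of the 18380 genes, 10509 were called positive with 0 members, 3906 with 1, and 24 with 7, the highest number reached. The 15 of these with the highest mean r were each called with Peg3, Plagl1, Igf2, Dlk1, Cdkn1c, Grb10 and Gnas. They were Cped1, Eif4a2, Amy1, Slc25a23, Flvcr2, Sqor, Gm9747, Csad, Cfd, Fam13a, D230025D16Rik, Gm20683, Acadsb, Ift172 and BB365896. Cfd encodes adipsin, an adipocyte hormone of the complement system, and Acadsb an enzyme of branched-chain amino acid breakdown. Inside the clusters the sharing was smaller: Cped1 reached r of 0.3 with 0 members in Y-negative and 6 in Y-positive libraries, and Eif4a2 with 4 and 6.

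Genes of the insulin-like growth factor pathway are read against the shares of all genes called with each member. With Grb10, 7 of 18 were positive and 2 negative, where 12.4% and 15.4% of all genes were. Irs1, the docking protein of both receptors, had r = 0.183 and 0.316 with Grb10, Igfbp6 0.46 and 0.129, and Igf2bp2 -0.0864 and -0.0799. With Gnas 4 were positive and 6 negative, near the 21.7% and 24.7% of all genes. Its r was 0.527 and 0.496 with the insulin receptor gene Insr, 0.337 and 0.492 with Irs1, and -0.727 and 0.306 with Igfbp4, whose sign turned. Peg3 had 4 positive and 0 negative (5.13% and 5.77% of all genes), with Irs2 at 0.457 and 0.551. Plagl1 had 4 positive and 1 negative (4.29% and 4.41% of all genes), with the growth hormone receptor gene Ghr at 0.396 and 0.583. Igf2 itself had 3 positive and 1 negative (5.44% and 8.04% of all genes), with Insr at 0.0712 and 0.498 and Irs2 at 0.184 and 0.392. Cdkn1c had 4 and 2 (16.7% and 17% of all genes), and Meg3 3 and 1 (9.56% and 8.23%). Dlk1 had 2 and 1 (7.5% and 8.56%), H19 2 and 0 (2.49% and 2.29%) and Ndn 0 and 1 (4.85% and 3.56%).

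Other imprinted genes did not follow the 10 as a block. Among all genes, positive and negative calls took 12.4% and 15.4% with Grb10, 4.29% and 4.41% with Plagl1, and 5.13% and 5.77% with Peg3. They took 5.44% and 8.04% with Igf2, 16.7% and 17% with Cdkn1c, and 4.85% and 3.56% with Ndn. They took 21.7% and 24.7% with Gnas, 9.56% and 8.23% with Meg3, 7.5% and 8.56% with Dlk1, and 2.49% and 2.29% with H19. The counts below were not tested against these shares. The lists include genes of a member's own locus, such as Usp29 with Peg3, and Rian and Mirg with Meg3. Of 22 paternally expressed genes tested, Grb10 had 6 called positive and 3 negative, Plagl1 5 and 0, Peg3 4 and 0, Igf2 4 and 1, Cdkn1c 4 and 3, Ndn 3 and 1, Gnas 2 and 8, Meg3 1 and 2, Dlk1 1 and 1, and H19 0 and 0. Zrsr1, a splicing factor gene, had r = 0.452 and 0.611 with Cdkn1c, 0.345 and 0.577 with Igf2, and 0.166 and 0.554 with Peg3. The retrogene Mcts2 had 0.775 and 0.239 with Gnas, but near-identical copies of it elsewhere make its count uncertain. Mest, a paternally expressed marker of fat expansion, had -0.363 and -0.00482 with Gnas and 0.394 and 0.226 with Ndn. Of 20 maternally expressed genes tested, Meg3 had 5 positive and 1 negative, Plagl1 3 and 2, Ndn 3 and 0, Grb10 2 and 2, H19 2 and 1, Gnas 1 and 2, Igf2 1 and 2, Cdkn1c 1 and 3, Peg3 1 and 1, and Dlk1 0 and 1. Median r over these lists stayed between -0.161 and 0.167.

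Of the 10 genes, 4 fell with mouse number when the clusters were not in the model, an order that the labels give without saying what it follows. The edgeR quasi-likelihood slope per 100 mice was -0.0934 ± 0.0271 (SE) log2 units for Peg3 (adjusted p = 0.00661), -0.0909 ± 0.025 for Plagl1 (0.00403), -0.0629 ± 0.0215 for Cdkn1c (0.0225) and -0.0484 ± 0.0123 for Grb10 (0.00174). Such a slope was called in 23.3% of all genes, in either direction. With Xist and Y chromosome transcripts as covariates only Plagl1 of the 10 was called (-0.0746 ± 0.0256, adjusted p = 0.0351). There the slope was -0.0705 for Peg3 (adjusted p = 0.0704), -0.0251 for Cdkn1c (0.47) and -0.0112 for Grb10 (0.449). With library number 0 of the 10 were called (0.31% of all genes). Dlk1, Meg3, Grb10 and Gnas had an unadjusted edgeR p under 0.05 there, as had 1549 of all 18380 genes. Inside 5 blocks of consecutive mouse numbers r of Peg3 with Plagl1 ran from 0.425 to 0.558 and r of Peg3 with Grb10 from 0.388 to 0.49.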

How the data were processed

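RNA from the adipose tissue of 468 mice was sequenced, with 1 library per mouse and 1 group in the labels. By their Y chromosome transcripts 227 libraries were Y-negative and 241 Y-positive. The study's methods state that EMASE, within GBRS, divided reads among genes by expectation maximization against a transcriptome joining the founder strains. The authors deposited expected counts per gene (66.8% whole within 1e-06) and log2-scale values from a variance stabilizing transformation (5.31 to 25.3), which served here as an alternative only. The submitters' processing notes name GRCm38 and DESeq2, and the coordinates of all 10 genes matched GENCODE M21 on GRCm38. No use of strand is given in the sources used here.

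Genes reaching 10 counts in 50% of the libraries or more were kept (18380 of 23180). CPM used TMM factors (0.578 to 1.36) from edgeR 4.0.16 and log2 CPM a prior count of 2. For each of the 10 genes and each score, limma 3.58.1 (R 4.3.3, lmFit and eBayes with trend) was fitted to every gene on the standardised predictor, with Benjamini-Hochberg adjustment over all genes. A call needed adjusted p under 0.05 and r of at least 0.3 in size. Slopes on mouse and library number came from the edgeR quasi-likelihood test on rounded counts, with DESeq2 1.42.0 and limma as alternatives. Permutation tests used 100000 resamples. No sample column was left unused.

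The members and lists were chosen with earlier results of these data known. Named were all members, their 5 highest and 3 lowest partners with a mean of at least 1 CPM, neighbours within 500 kb with r of at least 0.3 in size, the 15 genes shared by most members, and the extreme genes of each list. Some genes that the rule would name are not reported here. Genes named beyond that rule, and the muscle and thermogenic markers, were chosen after their values were seen. On simulated data (18380 genes, 200 changed, genes drawn independently), the association test called 100% of genes planted at r = 0.4 and 0% at r = 0.2, with 0 false calls. The limit of 0.3 on r largely fixes that outcome, so it checks the code and not the calls in these data. The term for the difference in slope between clusters made 8 false calls there, and the edgeR slope test 7. Alternatives were other scalings, filters, covariates and subsets of libraries, and the closing section gives their effect.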

Additional observations from a re-analysis of the deposited data

Results flagged for a closer look

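In 34 relations the slope differed between Y-negative and Y-positive libraries by a limma term for the difference (adjusted p under 0.05). The clusters were defined from the counts and not from the labels, and their sizes equal the study's numbers of females and males. The term was added after the data were seen. It was called in 14 of the 45 pairs and in 55 of the 130 relations with scores, of which the 20 with a difference in r of at least 0.4 are given here. Values are r in Y-positive minus r in Y-negative libraries. The term compares slopes of log2 CPM and not r, so its p-value does not measure these differences in r. Such differences were frequent among all genes. Against a member the term was called for 6.79% (Dlk1) to 57.1% (Plagl1) of all genes. Against a score it was called for 4.86% (T cell markers) to 58.2% (extracellular matrix). The counts of 14 and 55 were not tested against these shares, so they show no excess over all genes.

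Gnas differed by 0.881 with Plagl1, 0.651 with Grb10, 0.635 with Peg3 and 0.22 with Meg3. Meg3 differed by negative values with Plagl1 (-0.645), Peg3 (-0.507), Igf2 (-0.417) and Grb10 (-0.227). Cdkn1c differed by 0.447 with Plagl1, 0.304 with Peg3 and -0.266 with H19, Igf2 by 0.32 with Plagl1 and 0.208 with Peg3, and Plagl1 with H19 by -0.271.

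Among the scores, Plagl1 differed by -0.77 with macrophages, -0.738 with the matrix, -0.705 with mitosis genes and 0.496 with adipocytes. Peg3 had -0.642, -0.58, -0.524 and 0.448 with the same 4 scores. Igf2 had -0.539 with the matrix, -0.405 with mitosis genes and 0.446 with adipocytes. Gnas differed by -0.801 with the thermogenic genes, 0.64 with endothelial and 0.612 with mesothelial markers, and Cdkn1c by -0.405 with the thermogenic genes. Meg3 had -0.514 with endothelial, -0.476 with mural and -0.457 with mesothelial markers, Ndn -0.436 with mural markers and H19 -0.451 with skeletal muscle. The cause of these differences was not tested.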

How the results depend on the processing

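No paired analysis was possible because the labels form 1 group. Over all libraries 13 pairs were positive and 0 negative. The counts were 6 and 2 given Xist and the Y chromosome genes, 5 and 3 in Y-negative libraries, 4 and 3 there without the 2 libraries low in Xist (added after the data were seen), 4 and 1 given 4 cell scores, and 0 positive given 10 principal components. In Y-positive libraries 7 pairs were negative. Other settings with all 45 pairs gave 12 or 13 positive and 0 negative, and the cause was not tested. With a mean of at least 10 CPM only 28 pairs were left, of which 9 were positive and 0 negative. The share of all gene pairs was computed only over all libraries and inside each cluster, so counts with covariates have no background.

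Signs turned as follows. Given Xist and the Y genes, r was -0.0964 for Dlk1 and Grb10, -0.00153 for Dlk1 and Gnas, -0.116 for Grb10 and Gnas and -0.286 for Grb10 with the thermogenic score. In Y-negative libraries it was -0.00338 for Plagl1 and Cdkn1c, -0.1 for Dlk1 and Grb10, -0.315 for Grb10 and Gnas, -0.312 for Grb10 with the thermogenic and 0.0622 with the mitosis score, and 0.321 for Plagl1 with the macrophage score. Without those low in Xist, r of the pair Plagl1 and Cdkn1c was -0.00116, r of the pair Dlk1 and Grb10 -0.0971 and r of the pair Grb10 and Gnas -0.318. In Y-positive libraries it was 0.433 for Plagl1 and Gnas, -0.35 for H19 and Gnas, -0.101 for Dlk1 and Grb10, -0.0733 for Dlk1 and Gnas, 0.381 for Gnas with the endothelial score, -0.319 for Grb10 with the muscle and -0.258 with the thermogenic score, and -0.0602 for Cdkn1c with the thermogenic score. Given 10 components, r of the pair Dlk1 and Gnas was -0.0168 and r of the pair Grb10 and Gnas -0.0353. Of the other pair values 715 kept sign and side of the limit, 45 fell under it and 18 passed it.

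With mouse number 23.3% of genes were called, and 12.6% with Xist and the Y genes in the model, where Peg3, Cdkn1c and Grb10 lost their call (adjusted p = 0.0704, 0.47 and 0.449) and Plagl1 held it (0.0351). With library number 0.31% were called, against 0.725% without the filter, 0.174% without the tenth of lowest total count, 0.0163% with capped counts, 0.473% by DESeq2 and 0% by limma (1003 genes at an unadjusted p under 0.05). Depth limits Dlk1 and H19 most.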

Other observations

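Single libraries stood at the edge of several genes. The library with the lowest Peg3 (16.2 CPM) was also the lowest in Plagl1 (6.41 CPM), and it was Y-negative with 1398 CPM of Gnas and a macrophage score of -2.702 (mean z). The library with the highest Gnas, 1825 CPM, was Y-negative with a thermogenic score of 2.048. The library with the highest Meg3, 245.3 CPM, was Y-positive with a matrix score of 2.245 and an adipocyte score of -3.168. These libraries were chosen after their values were seen, and the cause was not tested.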
